A study of Homo sapiens with 7 samples.

Results

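The measurements below describe 1 Hi-C library of 7, made from DLD-1 cells that had been given auxin for 4 d and then kept without it for 4 d. It was chosen by its title, and it is set against the library at 4 d of auxin and the untreated library of the same cells, 1 library each, with the library at 10 d of continuous auxin as a further reference. DLD-1 is an established human colorectal adenocarcinoma line, and all of these cells, the untreated ones included, carry DNMT1-AID, in which DNMT1 is fused to an auxin-inducible degron. Auxin was indole-3-acetic acid at 500 nM as labelled, a unit that could not be checked from these data, and it was removed by washing the cells with buffered saline. The other 3 libraries come from cells of the same background with a DNMT3B knockout, untreated and after 4 or 10 d of auxin, and serve here only for the distance between whole curves and for contacts with mitochondrial DNA. The untreated one was placed by its title, since its genotype label names DNMT1-AID alone.

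DNMT1 copies DNA methylation onto the new strand after replication, and the degron leads to its degradation while auxin is present. Hi-C counts joined pairs of DNA pieces that lay close together in the nucleus. Contact falls with genomic separation, and the shape of this decay reflects loops and domains at short separations, active and inactive compartments over many megabases, and the packing of whole chromosome territories at the far end. Contacts between different chromosomes, called trans contacts, rise where territories mix.

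The washout library held 27345260 contacts, against 114710963 in the untreated library, 222645438 at 4 d and 158423127 at 10 d, with contacts inside chromosomes counted from 100 kb upward. With 1 library per condition no difference could be tested against replicates, and the intervals given are 95% intervals of counting error only. Because even the untreated cells carry the degron, effects of the auxin and of losing DNMT1 cannot be told apart, nor can the treatment of a library and whatever else sets that library apart. Balancing of the contact maps kept nearly the same bins in each library: the washout library had 100.3% of the untreated library's valid bin pairs at 100 kb. The tables used here hold no value for DNMT1 or for DNA methylation, so the return of either after washout was not measured.

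For each quantity, recovery is the distance travelled from the 4 d value divided by the distance from the 4 d value to the untreated one, on the log2 scale unless stated. A recovery of 0 means that the washout library lay at the 4 d value and 1 that it lay at the untreated value. A quantity is called returned at a recovery within 0.25 of 1, partly returned below that range but above 0, beyond untreated above it and farther from untreated below 0. Where the 4 d library differed from the untreated one by less than 0.05 on the log2 scale, no class is given. For the exponent, which is the fitted slope of the decay, recovery and the limit of 0.05 were taken on the exponent itself.

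Balanced contact within arms at 20 Mb or more was lower at 4 d. After washout it lay at the untreated level at 20 to 30 Mb, where the log2 difference of 0.0020 was inside the counting error of 0.0034. At 70 to 100 Mb it lay above untreated by 0.18. With each curve divided by its own within-arm total, the difference at 20 to 30 Mb was 0.035. Within chromosome arms, contacts at 10 Mb or more made up 16.3% in the untreated library, 14.1% at 4 d, 16.7% after washout and 16.9% at 10 d, which gives the washout library a recovery of 1.18. Contacts under 1 Mb made up 59.06% untreated, 61.57% at 4 d and 59.10% after washout, a recovery of 0.98. The farthest contacts lay above the untreated value rather than at it. Within whole chromosomes, contacts at 50 Mb or more made up 3.73% untreated, 3.26% at 4 d, 4.16% after washout and 4.58% at 10 d, a recovery of 1.81. At 100 Mb or more the shares were 1.14%, 1.05%, 1.27% and 1.45% in the same order, a recovery of 2.26.

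As balanced contact, the single separation bins followed no single class. At 15 to 50 Mb the washout library lay at or near the untreated value: at 20 to 30 Mb the balanced contact per 1000000 bin pairs was 126.2 untreated, 109.9 at 4 d and 126.4 after washout. The log2 difference between washout and untreated cells was -0.013 at 15 to 20 Mb, 0.0020 at 20 to 30 Mb, 0.0072 at 30 to 40 Mb and 0.037 at 40 to 50 Mb, against -0.15 to -0.30 for the 4 d library in the same bins. The bin at 10 to 15 Mb, at -0.082 at 4 d and -0.041 after washout, was the one that partly returned, with a recovery of 0.503. The 3 bins from 0.2 to 0.5 Mb lay beyond untreated, at 0.082 to 0.11 at 4 d and -0.024 to -0.057 after washout. At 0.5 to 2 Mb, the range of large domains, contact had been higher at 4 d and was lower than untreated after washout. At 0.7 to 1 Mb it was 4283 untreated, 4586 at 4 d, 4013 after washout and 3925 at 10 d, a log2 difference of -0.094 between washout and untreated cells with a counting error of 0.0028.

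Above 50 Mb the washout curve crossed to the other side. Contact per 1000000 bin pairs at 70 to 100 Mb was 15.1 untreated, 13.1 at 4 d, 17.2 after washout and 20.04 at 10 d. The washout library was 0.18 above untreated on the log2 scale there, 0.092 above at 50 to 70 Mb and 0.15 above at 100 to 150 Mb, where 10344 washout counts give a counting error of 0.031. In each of these bins the washout value lay between the untreated value and the 10 d value. Since the 4 d, 10 d and washout differences share the untreated library, their likeness is given as values only.

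As balanced contact, the range from 2 to 10 Mb lay slightly below untreated both at 4 d and after washout. Its 5 bins lay between -0.024 and -0.047 at 4 d and between -0.027 and -0.060 after washout. Balancing gives each bin a fixed total, so that a larger share of trans contacts lowers balanced contact within arms. With each curve divided by its own within-arm total, which leaves shape alone, the washout library was 0.022 above untreated at 0.1 to 0.2 Mb and within 0.027 of it in every bin from 2 to 15 Mb. From 15 to 50 Mb it was above untreated in every bin, by 0.019, 0.035, 0.040 and 0.070 in order of separation. The dip at 0.5 to 2 Mb remained at -0.043 to -0.065, and the far excess was 0.12, 0.21 and 0.18 in the 3 bins from 50 Mb on. On shape alone the 4 d library had lain at -0.046 to -0.069 from 2 to 10 Mb, so that the bins at 3 to 4 and 4 to 5 Mb had recoveries of 0.83 and 0.98. The bins at 0.2 to 0.3 and 0.3 to 0.4 Mb, beyond untreated as balanced contact, returned on shape, with recoveries of 0.86 and 1.11. The bin at 0.4 to 0.5 Mb still lay beyond untreated, at 1.27.

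**Figure D1:**
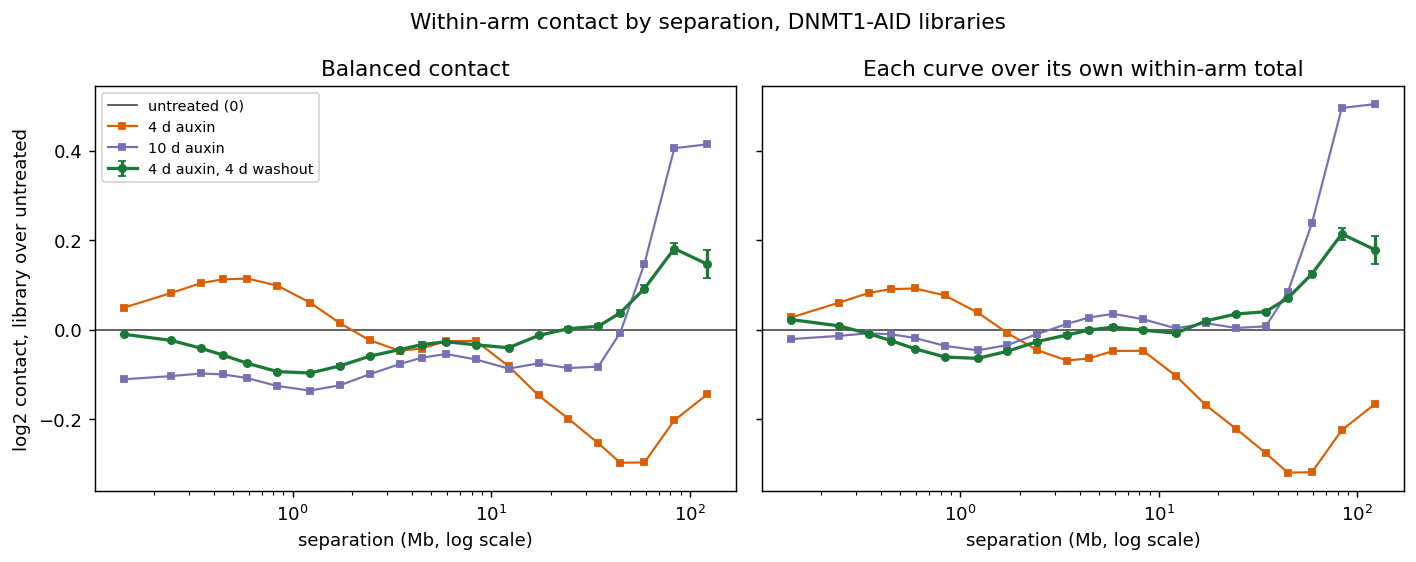
Log2 contact within chromosome arms over the untreated library against separation in Mb (log axis), as balanced contact on the left and with each curve divided by its own total on the right, 1 library per line. Bars on the washout points are 95% counting errors. The washout line meets 0 at 20 to 40 Mb on the left, lies lowest at -0.097 at 1 to 1.5 Mb and rises to 0.18 at 70 to 100 Mb.

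The slope of the decay between neighbouring bins departed from the untreated slope in opposite directions at 4 d and after washout in some bins and in the same direction in others. From 0.2 to 0.4 Mb the slope was -1.06 untreated, -1.02 at 4 d and -1.09 after washout, so the decay was shallower at 4 d and steeper after washout than in untreated cells. From 1 to 2 Mb it was -1.59 untreated, -1.68 at 4 d and -1.56 after washout, the opposite pair of departures. At 10 to 20 Mb, where compartments shape the curve, the slopes were -0.69, -0.83 and -0.63. Against untreated, the 4 d and washout slopes both differed by -0.030 and -0.035 from 0.5 to 1 Mb, by 0.014 and 0.030 from 3 to 5 Mb and by 0.202 and 0.19 from 50 to 100 Mb. The exponent fitted over 0.5 to 5 Mb was -1.40 untreated, -1.47 at 4 d, -1.38 after washout and -1.38 at 10 d, a recovery of 1.304. Over 5 to 50 Mb the recovery was 1.22. Over 1 to 10 Mb it was 1.89, but the exponent there had changed by only -0.028 at 4 d, so no class is given.

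Measured as the root mean square log2 difference over all 21 separation bins, the washout curve lay 0.073 from the untreated curve, 0.093 from that at 10 d and 0.19 from that at 4 d. Against the knockout libraries the distance was 0.20 for the untreated one, 0.21 at 4 d and 0.34 at 10 d. The order depended on the range. Under 2 Mb the 10 d curve was nearest at 0.058, with the untreated curve at 0.067 and the 4 d curve at 0.15. The knockout curves lay between at 0.069 for 4 d, 0.088 untreated and 0.11 for 10 d. Above 20 Mb the untreated curve was nearest at 0.10, with the 10 d curve at 0.15 and the 4 d curve at 0.32.

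Single arms were compared in the same bins. Crossing 41 arms with the separation bins gave 743 cells with at least 1000 counts in the untreated, 4 d and washout libraries. Of these, 70.4% differed from the untreated library by 0.05 or more at 4 d (523 cells) and 49.1% after washout (365 cells). Of the 523, 169 were classed as returned, 68 as partly returned, 263 as beyond untreated and 23 as farther from untreated. On shape alone 536 cells had changed at 4 d, and 267 returned, 68 partly returned, 196 lay beyond untreated and 5 lay farther.

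At 20 to 50 Mb 81 of 93 cells returned, 2 partly returned and 10 lay beyond untreated. On shape alone 66 returned and 27 lay beyond. The cells that returned in part were 21q at 20 to 30 Mb (recovery 0.66, 1522 washout counts) and 11p at 40 to 50 Mb (0.71, 1034 counts). At 10 to 20 Mb 41 of 79 cells returned and 25 partly returned, and the washout library exceeded the 4 d library in 76 of 79. On shape alone 55 returned, 9 partly returned and 11 lay beyond untreated. As balanced contact in that range 10q at 10 to 15 Mb lay farther from untreated, at -0.068 at 4 d and -0.088 after washout, while both bins of 12p and the bin of 13q at 15 to 20 Mb lay beyond untreated.

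As balanced contact, no cell returned at 0.5 to 2 Mb. Contact after washout was below the untreated value in 164 of 164 cells, with a median of -0.087. Over all 743 cells it was below in 614, with a median of -0.041. Of the 116 cells at 0.5 to 2 Mb that had changed at 4 d, 113 lay beyond untreated. The other 3 were on 2 gene-rich arms. On 19p contact at 1 to 1.5 Mb went from -0.072 at 4 d to -0.18 after washout and at 1.5 to 2 Mb from -0.16 to -0.12, and on 16p at 1.5 to 2 Mb from -0.057 to -0.12. On shape alone 162 of 164 cells were below untreated, with a median of -0.054, against 407 of all 743 cells with a median of -0.0056. Of the 91 cells in this range that had changed at 4 d on shape, 6 returned and 2 partly returned. Another 79 lay beyond untreated and 4 lay farther.

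At 50 Mb or more the washout library lay above the untreated one in 38 of 38 cells, with 29 beyond untreated and 8 returned. Taken by arm, all 19 arms long enough for this range were higher, from 0.043 on Xq, 0.054 on 13q and 0.067 on 1q to 0.16 on 15q, 0.16 on 6q and 0.21 on 3p. The 10 d library was higher on 18 of these 19 arms, with Xq the exception at -0.18. At 0.1 to 0.5 Mb 106 of 164 cells lay beyond untreated and 33 returned, but on shape alone 29 lay beyond and 71 returned.

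**Figure D2:**
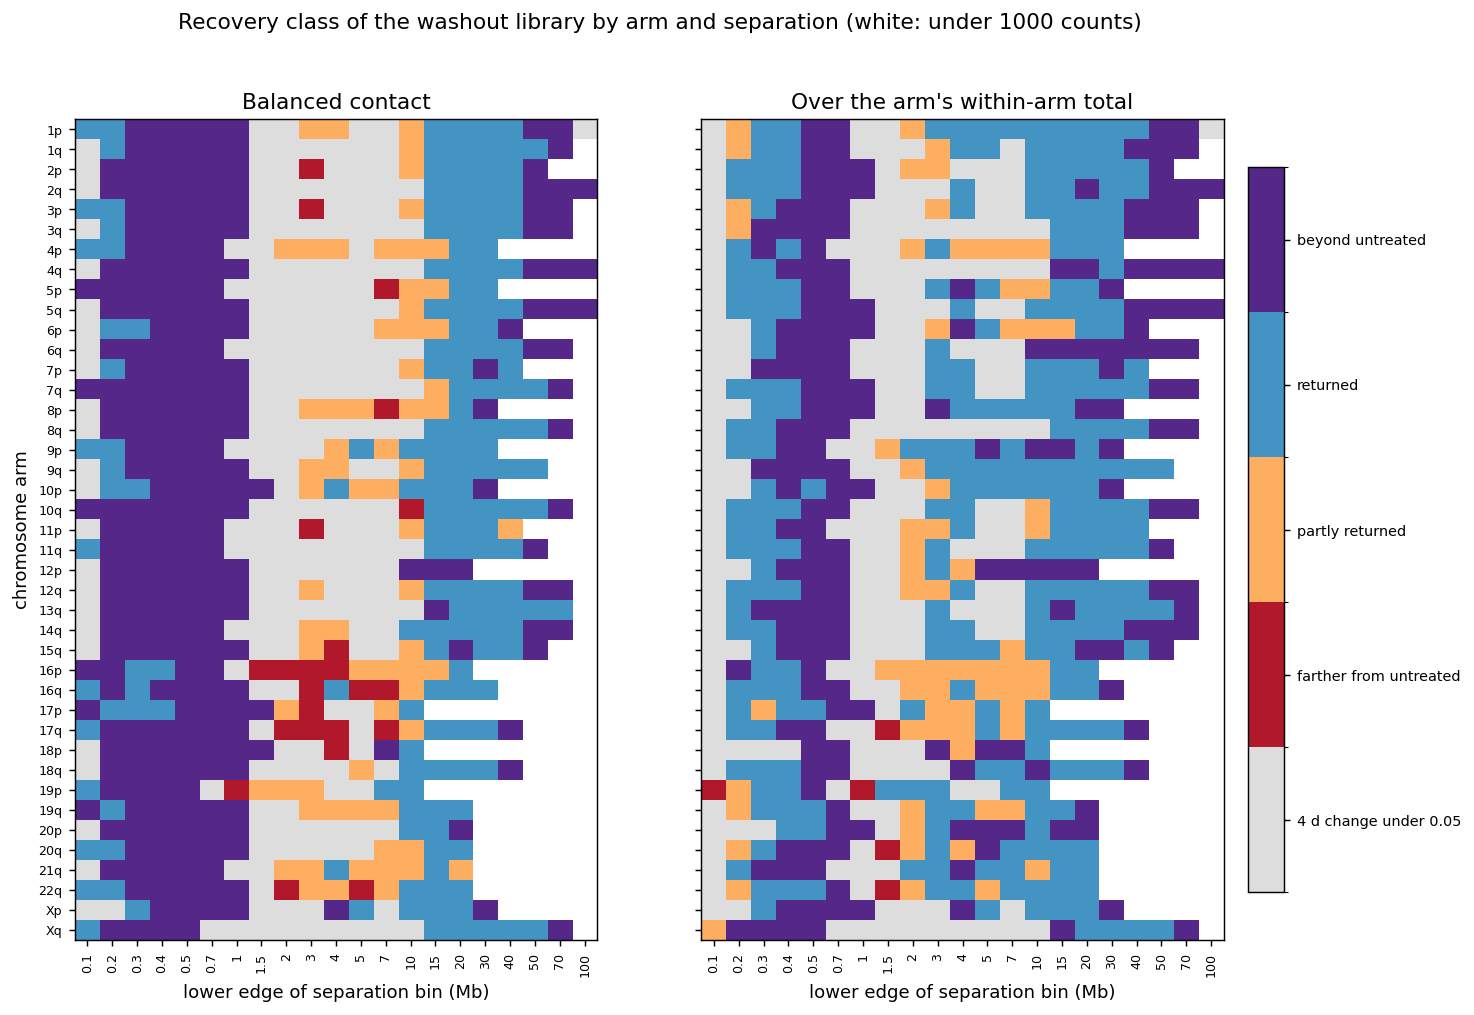
Recovery class of the washout library in each chromosome arm (rows) and separation bin (columns, lower edge in Mb), as balanced contact on the left and as share of the arm's own total on the right. Cells under 1000 counts are white. Most cells at 20 to 50 Mb are returned in both panels (81 and 66 of 93), and most at 50 Mb or more lie beyond untreated (29 and 34 of 38). At 0.1 to 0.5 Mb the panels differ, with 106 cells beyond untreated on the left and 29 on the right.

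The spread of the washout difference over arms had an SD of 0.029 at 2 to 10 Mb, 0.036 at 10 to 20 Mb and 0.049 at 20 to 50 Mb. At 2 to 10 Mb the log2 difference between washout and untreated cells ran from -0.12 on 16p, -0.11 on 17q and -0.11 on 19q, all gene-rich, to -0.018 on 13q, -0.011 on Xq and 0.043 on 18p. 16p did not move toward the untreated value, with -0.12 at 4 d and -0.12 after washout, a recovery of 0.024. 17q lay farther from untreated than at 4 d, by -0.034 with a counting error of 0.016. 16q and 17p were classed so too, but their washout values differed from 4 d by -0.0032 and -0.013, inside counting errors of 0.015 and 0.025. Across 41 arms the washout difference at 2 to 10 Mb had a Pearson r of -0.70 and a Spearman rho of -0.75 with protein-coding genes per Mb. This describes arms that share libraries, depth and base composition. The relation was already there at 4 d, with r of -0.81 and rho of -0.51. At 0.5 to 2 Mb r was -0.66 and rho -0.60, with 19p (-0.16), 17q (-0.13) and 16p (-0.12) lowest and Xq (-0.068), Xp (-0.064) and 13q (-0.063) highest. At 4 d the values for 0.5 to 2 Mb were an r of -0.013 and a rho of 0.20. In the other ranges the relation after washout was weaker or absent. The r was -0.20 at 0.1 to 0.5 Mb, -0.37 at 10 to 20 Mb, 0.13 at 20 to 50 Mb and 0.24 from 50 Mb on. The rho was -0.059, -0.53, -0.13 and 0.19 in that order.

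The share at 10 Mb or more was compared over arms in the same way. At 4 d its difference from untreated went with gene density, with r of -0.87 and rho of -0.67 over the 41 arms, and the share of the arm in the authors' active clusters (A1 and A2), with r of -0.87 over the 38 arms that hold clusters. After washout the corresponding r values were -0.23 and -0.19. Recovery was between 0.80 and 1.504 with a median of 1.15, and 36 arms returned while 5 lay beyond untreated. With the boundary at 20 Mb in place of 10 Mb, 19 returned and 19 lay beyond. The washout interval overlapped the untreated one on 11 arms, lay above it on 29 and below it on 1.

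The gene-rich arms with the lowest values at 4 d returned. On 19p the share was 3.75% untreated, 2.49% at 4 d and 3.68% after washout (interval 3.57% to 3.79%, from 4043 counts), against 3.02% at 10 d. On 19q it was 6.48%, 4.64%, 6.75% and 6.06% in that order, and on 22q 7.57%, 5.51%, 7.61% and 7.16%. These arms were thus nearer to untreated after washout than after 10 d of auxin. On 17p the share was 2.986% untreated, 2.22% at 4 d, 3.002% after washout and 2.986% at 10 d, so its washout and 10 d values were alike.

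21q had the lowest recovery, 0.80, with 6.09% untreated, 5.11% at 4 d and 5.88% after washout (5.78% to 5.98%), and was the arm below the untreated interval. Its log2 difference of -0.050 was -0.023 with a boundary at 20 Mb and -0.0099 at 5 Mb, both smaller than the counting error of 0.028 at 10 Mb. 19p at 0.95 and 4p at 0.99 followed. 12p had the highest recovery, 1.504, with 6.58% untreated, 5.57% at 4 d, 7.15% after washout and 7.19% at 10 d. On 12p the excess grew with separation, and its contact at 20 to 50 Mb was 0.20 above untreated with a counting error of 0.054. 6q had a recovery of 1.39 and 4q of 1.35, with 20.89% against 19.996% and 23.6% against 22.7% in untreated cells. The lists fixed by chromosome type fell on both sides: of the acrocentric arms, 21q was low, 22q stood at 1.02 and 13q, 14q and 15q at 1.15 to 1.22.

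The exponent over 0.5 to 5 Mb was above its 4 d value on 41 of 41 arms and above its untreated value on 39. Its difference from untreated had a mean of 0.018 with an SD of 0.0086 over arms, which are not replicates. Recovery of the exponent ran from 0.98 on 16p, 0.98 on 17q and 1.012 on 17p to 1.56 on 4q, 1.68 on 18p and 1.71 on Xq. On Xq the exponent was -1.289 untreated, -1.317 at 4 d, -1.268 after washout and -1.242 at 10 d. On 25 arms recovery of the exponent lay above the returned range, and on 5 of them (4q, 5p, 8q, 11q and Xq) the exponent had changed by less than 0.05 at 4 d, which leaves 20 with a class.

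**Figure D3:**
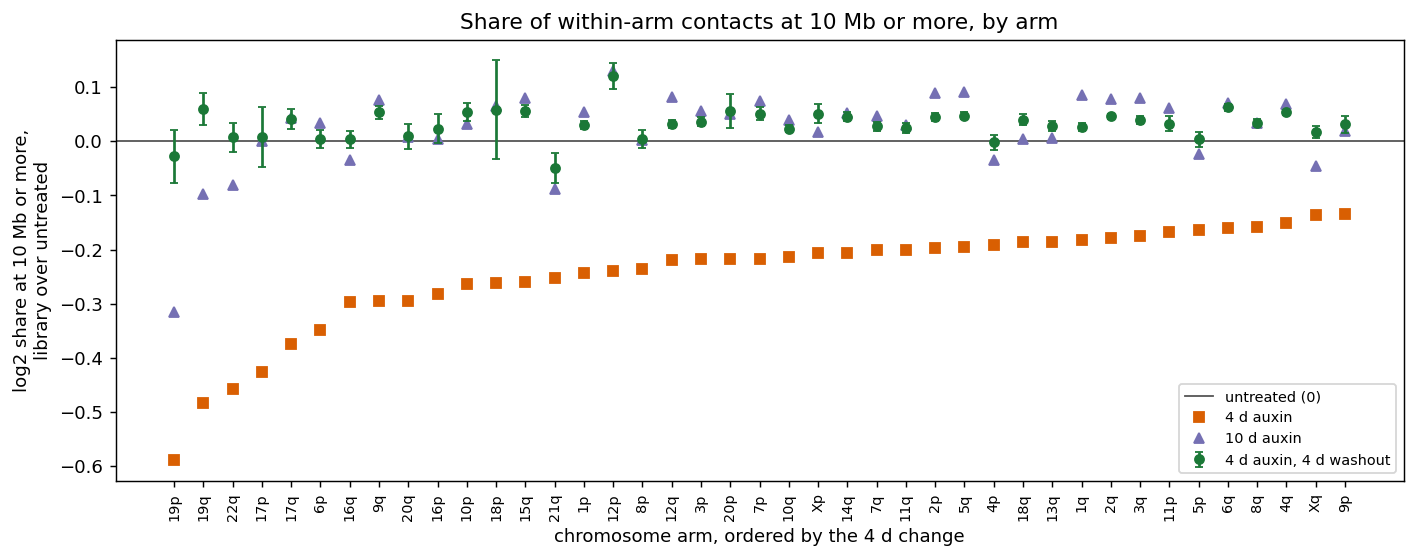
Log2 share of within-arm contacts at 10 Mb or more over the untreated library for 41 arms, ordered by the 4 d change, 1 library per symbol, with 95% counting errors on the washout points. The 4 d values run from -0.59 on 19p to -0.13 on 9p, while the washout values lie between -0.050 on 21q and 0.12 on 12p.

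Contacts between chromosomes lay above the untreated value after washout rather than at it. The trans share was 21.4% in the untreated library, 20.5% at 4 d, 23.1% after washout (23.13% to 23.16%) and 26.2% at 10 d, and this order held on 23 of 23 chromosomes. Its log2 difference from untreated was 0.085 on chromosome 22, 0.0996 on 17 and 0.10 on 13 at the low end, and 0.125 on 5, 0.125 on 1 and 0.128 on 19 at the high end, with an SD of 0.0098. This spread was narrow beside that of the 10 d library, which ran from 0.18 to 0.35. On a given chromosome the washout excess over untreated was 0.34 to 0.47 of the 10 d excess on the log2 scale, with a median of 0.40.

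On chromosome 22 the trans share was 36.3% untreated, 33.6% at 4 d, 38.5% after washout and 41.2% at 10 d. On chromosome 19 it was 29.997% untreated and 29.98% at 4 d, then 32.8% after washout and 36.9% at 10 d, so a higher value after washout stood beside almost no difference at 4 d. Of the 23 chromosomes 15 lay beyond untreated, with recoveries from 1.75 on 22, 2.05 on 17 and 2.10 on 13 to 3.20 on 4, 3.21 on 12 and 3.24 on 2, and the other 8 had changed by less than 0.05 at 4 d.

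The low 4 d value rests on the shortest contacts. Counting contacts within chromosomes from 1 Mb on, the trans share was 38.3% untreated, 38.6% at 4 d, 40.7% after washout and 44.4% at 10 d. On that count the 4 d library lay above the untreated one on 19 of 23 chromosomes. The washout library lay above untreated on 23 and above 4 d on 22, all but chromosome 19. Chromosome 19 was at 53.7% untreated, 57.5% at 4 d and 57.0% after washout. Its log2 difference from untreated was 0.099 at 4 d and 0.087 after washout. The higher trans share after washout therefore held under both counts, by 0.12 and 0.086 on the log2 scale, while its class of beyond untreated did not.

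Contacts joining nuclear and mitochondrial DNA, which lie in separate compartments of the cell, moved with the trans share in part. Against the number of contacts among nuclear chromosomes they came to 0.0377% untreated, 0.0288% at 4 d, 0.0504% after washout (13793 counts, 0.0496% to 0.0513%) and 0.0368% at 10 d. The washout library was the highest of these 4, whereas its trans share was second to that at 10 d. Their part in the trans share was not tested.

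**Figure D4:**
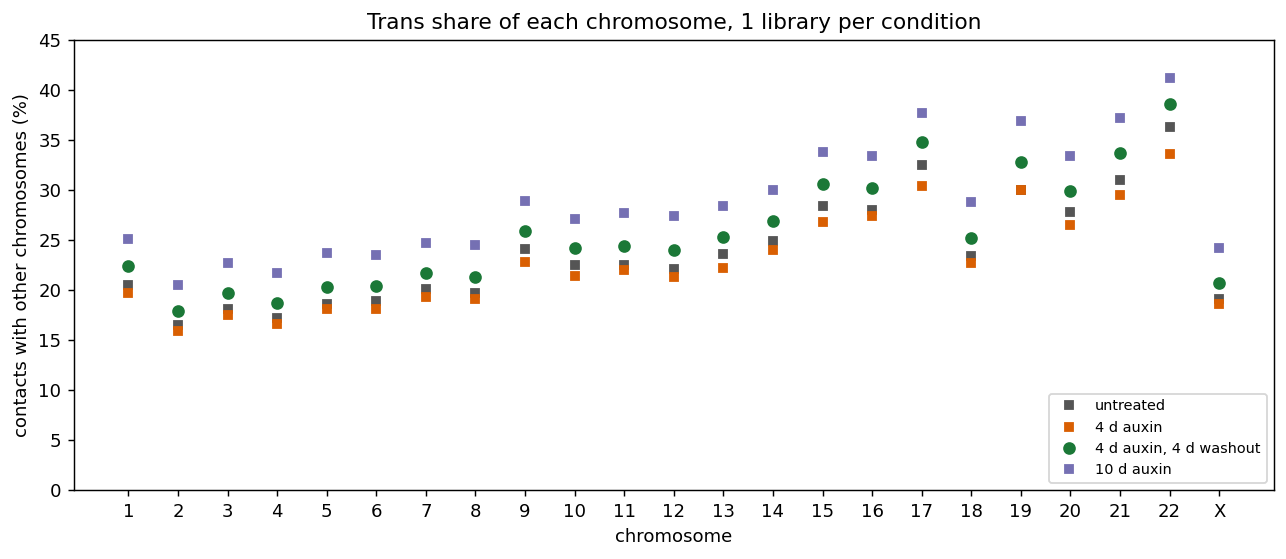
Percentage of each chromosome's contacts that join it to another chromosome, by chromosome, 1 library per symbol, with within-chromosome contacts counted from 100 kb on. On 23 of 23 chromosomes the washout point lies above the untreated point and below the 10 d point, for example at 38.5% on chromosome 22 between 36.3% and 41.2%.

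Single chromosome pairs, each taken relative to the median pair of its library, lay nearer to untreated values than at 4 d. Of 253 pairs, 19.4% (49) differed from the untreated library by 0.05 or more at 4 d and 5.14% (13) after washout. The SD over pairs was 0.044 at 4 d, 0.023 after washout and 0.071 at 10 d. On raw counts over the product of both chromosomes' trans totals it was 0.025, 0.017 and 0.035. Of the 49 pairs 22 returned, 25 partly returned, 1 lay beyond untreated and 1 lay farther. Behind each pair stood 3688 to 100577 washout counts, with a median of 20154, and 82 of the 253 washout differences were outside the counting error.

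Median recovery was larger among pairs lower at 4 d than among pairs higher at 4 d, a difference that was not tested. The lowered pairs numbered 39, of which 13 involved chromosome 22, and 21 returned and 17 partly returned with a median recovery of 0.82. The raised pairs numbered 10, all with chromosome 19, of which 1 returned and 8 partly returned with a median recovery of 0.53. Chromosome 19 with 4 was at 0.10 at 4 d and 0.063 after washout, with 6 at 0.084 and 0.056, and with 1 at 0.055 and 0.068. The last was the pair farther from untreated, but it lay only 0.013 from its 4 d value. That is less than its counting error of 0.020 against untreated. These 3 pairs of chromosome 19 were also the highest of all pairs after washout on this scale. On raw counts over trans totals 19 with 1, 4 and 6 stood at 0.027, 0.021 and 0.026 after washout, and the highest pair was 13 with 21 at 0.059. Relative to the median pair, mean contact of chromosome 19 with the other 22 chromosomes was 0.030 at 4 d, 0.029 after washout and 0.038 at 10 d. On raw counts over trans totals the means were -0.0012, -0.0053 and 0.0022, with 11 pairs higher and 11 lower than untreated after washout.

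The difference in recovery between lowered and raised pairs was not tested, since pairs share chromosomes. On a scale of raw counts over the product of both chromosomes' trans totals the changes were smaller, with 17 pairs past 0.05 at 4 d, of which 5 returned and 10 partly returned. There 11 lowered pairs had a median recovery of 0.69 and 6 raised pairs of 0.62, and only 3 of the raised pairs involved chromosome 19.

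Recovery differed among the pairs of chromosome 22. Its pair with 15 was at -0.18 at 4 d and -0.029 after washout, its pair with 21 at -0.18 and -0.031, and its pair with 16 at -0.13 and -0.0061. Its pair with 18 was at -0.081 and -0.067, and its pair with 13 at -0.10 and -0.074, the lowest of all pairs after washout on this scale, with a counting error of 0.044. On raw counts over trans totals 13 with 22 was at -0.043, inside that error, and 18 with 22 was lowest at -0.063. These last pairs involve gene-poor partners. Among other pairs of chromosome 13, that with 14 had a recovery of 0.15, that with 20 of 0.21, and that with 16 was at -0.025 at 4 d and -0.065 after washout. On raw counts over trans totals the washout difference was smaller for 13 with 14, at -0.025 in place of -0.052, and for 13 with 16, at -0.031. The highest recoveries were 1.16 for 20 with 21, 1.24999 for 15 with 21, just inside the returned range, and 1.251 for 19 with 22, just outside it. Their washout differences from untreated were 0.014, 0.020 and 0.022 in that order, each inside its counting error of 0.034, 0.037 and 0.032.

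Pairs were also taken by chromosome list. The small gene-rich chromosomes 16, 17, 19, 20 and 22 form 10 pairs. Their medians were -0.090 at 4 d, 0.00046 after washout and -0.14 at 10 d. After washout 10 of 10 lay above their 4 d value, as did 187 of all 253 pairs. On raw counts over trans totals the gene-rich medians were -0.047, -0.00025 and -0.050. There 10 of 10 again lay above 4 d, against 104 of all 253. The 10 pairs among chromosomes 13, 14, 15, 21 and 22, the acrocentric ones with ribosomal DNA on their short arms, had medians of -0.071, -0.028 and -0.11, and 7 were still below untreated, against 116 of all 253. On raw counts over trans totals the acrocentric medians were -0.019, -0.019 and -0.016, with no move toward untreated. Relative to the median pair, the medians over all 253 pairs were -0.013, 0.0017 and -0.012. Among the gene-poor chromosomes 4, 5, 13, 18 and X they were 0.0079, 0.013 and 0.053. On raw counts over trans totals the gene-poor medians were 0.014, 0.011 and 0.0033, so the higher 10 d value was absent there.

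**Figure D5:**
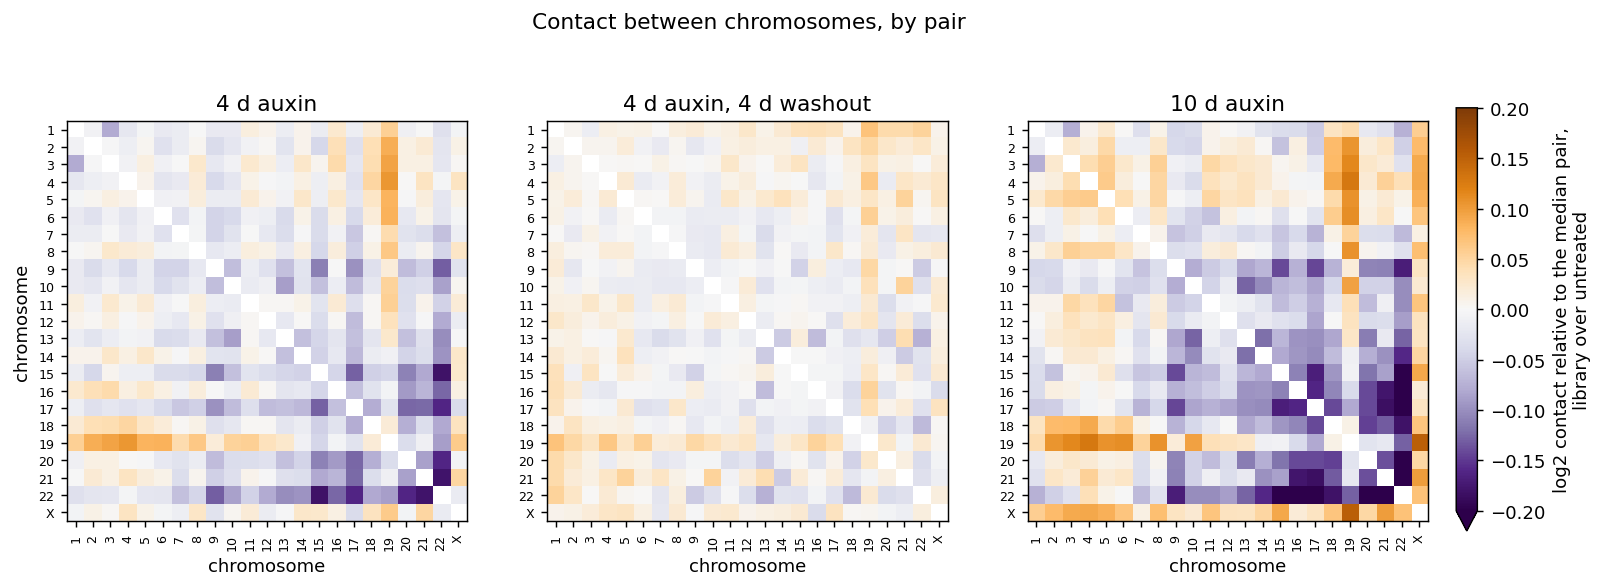
Log2 contact of each chromosome pair, relative to the median pair, over the untreated library at 4 d of auxin, after washout and at 10 d, on 1 colour scale from -0.2 to 0.2. The washout panel is the palest, with an SD of 0.023 against 0.044 and 0.071, and the row of chromosome 19 is still high with 1, 4 and 6.

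Contact between the arms of a chromosome returned at 10 to 40 Mb and lay beyond untreated at larger separations. On the 18 chromosomes with enough bin pairs, inter-arm contact at 20 to 30 Mb was -0.19 from untreated at 4 d and -0.020 after washout, and at 10 d -0.22. At 30 to 40 Mb the values were -0.21 and 0.047, and at 40 to 50 Mb -0.21 and 0.076. At 70 to 100 Mb they were -0.12 and 0.15, with 0.23 at 10 d. Inter-arm contacts made up 4.72% of contacts within chromosomes in untreated cells, 4.19% at 4 d, 5.09% after washout and 5.16% at 10 d.

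Set against contact within arms at the same 20 to 50 Mb, the inter-arm ratio was 0.773 untreated, 0.787 at 4 d, 0.788 after washout and 0.724 at 10 d. Pairs between arms are on average at larger separations within this window than pairs inside an arm, and with each separation matched the ratios were 0.845, 0.887, 0.851 and 0.787. The matched ratio after washout was within 0.0095 of untreated on the log2 scale, whereas the pooled ratio was within 0.0015 of its 4 d value. By chromosome the pooled ratio returned on 4, partly returned on 6, lay beyond untreated on 1 and farther on 1, with 6 changed by less than 0.05, and the matched ratio gave 5, 6, 0, 2 and 5.

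The chromosomes lowest against untreated in the pooled ratio were 17 (-0.055), 16 (-0.038) and 1 (-0.031), the last inside its counting error of 0.040. The highest were 2 (0.0499), X (0.066) and 11 (0.099). With separation matched, the lowest were 19 (-0.14), 16 (-0.12) and 17 (-0.083), and the highest were again 2, X and 11. On chromosome 19 the matched ratio lay farther from untreated than its -0.10 at 4 d. Chromosomes 1, 9 and 16 carry long blocks of pericentromeric satellite DNA, which is heavily methylated in most cells. With separation matched, the ratio was 1.47 untreated, 1.43 at 4 d, 1.41 after washout and 1.11 at 10 d on chromosome 1, and 1.68, 1.67, 1.54 and 1.247 on chromosome 16. On chromosome 9 it was 1.098, 1.32, 1.13 and 0.993, a recovery of 0.83. For the 3 chromosomes together it was 1.474, 1.528, 1.407 and 1.153, and for the other 15 it was 0.814, 0.857, 0.823 and 0.767. The washout counts between arms at 20 to 50 Mb were 6067 on chromosome 1, 6085 on chromosome 9 and 17890 on chromosome 16.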

How the data were processed

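Hi-C libraries were made with an Arima kit, per the labels' protocols. Per the submitters' processing notes, BWA and hg38 were used. Versions, read-pair filters and the balancing program were not given in the sources used here. Per the file headers, the deposited tables give, per 50 kb step of separation, the raw contact count, the summed balanced signal of the authors (coverage evened between bins) and the number of valid bin pairs, within arms, within chromosomes, between arms and between chromosomes. The authors' cluster names per bin, deposited for the untreated library, entered only as shares per arm. The authors deposited no separation under 100 kb (2 bins).

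Shares use raw counts with 95% exact binomial (Clopper-Pearson) intervals, and log2 differences of contact carry Poisson errors of 1.96 standard errors from both libraries' counts. Contact is the balanced sum over valid bin pairs in 21 separation bins. The exponent is a least-squares slope over 20 log-spaced bins from 0.5 to 5 Mb. Arms needed 1000 counts and inter-arm chromosomes 10000 bin pairs of each kind. Chromosomes 1 to 22 and X were used (23). Genes per Mb come from RefSeq on GRCh38, the assembly of hg38. Named arms, chromosomes and pairs are the 3 lowest and 3 highest by washout difference and by recovery, members of the 4 chromosome lists, single exceptions within a class, and every separation bin. Members and lists were chosen with earlier results of these data known. Each group holds 1 library, so no test was run. The measures were tested on simulated data. Python 3.11.15, numpy 2.4.6, pandas 2.3.3, scipy 1.17.1 and matplotlib 3.10.9 were used.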

Additional observations from a re-analysis of the deposited data

Results flagged for a closer look

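Contacts joining nuclear and mitochondrial DNA entered none of the decay, trans or pair values. Against the number of contacts among nuclear chromosomes they came to 0.0504% after washout, above the 0.0377% of the untreated control library, from 13793 counts. In the knockout libraries they came to 0.0534% untreated, 0.0949% at 4 d and 0.0532% at 10 d. Their source was not tested.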

How the results depend on the processing

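No paired analysis was possible because each group holds 1 library. All values are single-library contrasts, and the counting errors leave out the spread between cultures. Of 110 alternative values of the main results 58 moved by less than the counting error or, for counts, by less than 1.5 times, and 52 moved by more; none of the 110 was a called value that changed sign. Log2 values for washout against untreated and then against 4 d follow. The long-range share (0.037, 0.24) was 0.063 and 0.32 with a boundary at 20 Mb, 0.027 and 0.18 at 5 Mb, and 0.039 and 0.24 from balanced sums; on whole chromosomes it was 0.051 against untreated, and without chromosomes 19 and 22 it was 0.24 against 4 d. The trans share (0.12, 0.17) was 0.11 and 0.16 from balanced sums and 0.086 and 0.074 with contacts from 1 Mb on. The exponent difference (0.019, 0.081) was 0.025 and 0.053 over 1 to 10 Mb and 0.022 and 0.12 over 5 to 50 Mb, and 0.085 against 4 d from raw counts. The inter-arm ratio (0.026, 0.0015) was 0.0095 and -0.061 with separations matched, 0.019 and 0.040 over 10 to 40 Mb, and -0.021 against 4 d without chromosomes 19 and 22; the difference of 0.0015 was inside the counting error.

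Of the arm and separation cells, a 4 d change of at least 0.1 left 31 partly returned, 154 beyond untreated and 2 farther. Counting as returned a recovery of 0.9 to 1.1 left 81 returned, and shape alone gave 267 returned and 5 farther. With the boundary at 20 Mb the arms divided into 19 returned, 1 partly returned, 19 beyond untreated and 1 farther, and at 5 Mb 9 lay beyond. Chromosome pairs gave 5 returned and 10 partly returned from raw counts over trans totals. A change of at least 0.1 gave 9 returned, 4 partly returned, 0 beyond and 0 farther, and the range of 0.9 to 1.1 gave 9 returned and 4 beyond. Relative to the mean pair 3 pairs lay beyond untreated, as they did (3) relative to the median change, an alternative chosen after seeing the data. Without chromosomes 19 and 22, 10 partly returned, 2 lay beyond and 0 farther. The curve's distance over 1 to 50 Mb was 0.048 from untreated, 0.15 from 4 d and 0.052 from 10 d; on shape it was 0.21 from 4 d, and from raw counts 0.22 from 4 d and 0.10 from 10 d. For single features, tried after seeing the data, 5 signs turned: the share of 19q was -0.022 at a 5 Mb boundary, and on shape alone the bins at 0.1 to 0.2, 0.2 to 0.3, 5 to 7 and 15 to 20 Mb stood at 0.022, 0.0083, 0.0054 and 0.019.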
